A study of Rattus norvegicus with 21 samples.

Results

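The transcripts of 40 nucleolar ribosome biogenesis genes were followed in the anterior lobe of the pituitary in male rats given a synthetic estrogen. The genes were taken by symbol from 7 groups of factors, and every probe set that the platform annotation gave to 1 of these symbols alone was counted as theirs. By this rule 39 of the 40 genes had at least 1 probe set of their own, out of 14217 genes on the array. They held 49 probe sets out of 31099, and 7 genes had more than 1. Npm1, which encodes the abundant nucleolar chaperone nucleophosmin, was covered only by 3 probe sets that also named a pseudogene, so no value is given for it. All 39 genes passed the filter on low signals through at least 1 probe set, and 48 of the 49 probe sets did.

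The rats were inbred and of 3 strains, namely ACI, COP (Copenhagen) and BN (Brown Norway), and each received an implant of silastic tubing at 9 weeks of age. DES rats of each strain had an implant holding 5 mg of diethylstilbestrol (DES) and control rats an empty one. All groups were injected with BrdU at 50 mg/kg, 4 hours before death, which was at 21 weeks of age and 12 weeks into treatment. RNA from the gland was hybridized to the Affymetrix Rat Genome 230 2.0 array, with 4 DES and 3 control arrays in each strain and 21 arrays in all. COP rats came from another supplier than ACI and BN rats, so strain and supplier cannot be told apart in comparisons with COP. ACI was derived in part from Copenhagen stock.

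Ribosomes are assembled in the nucleolus, where RNA polymerase I copies the ribosomal DNA into a long precursor. Small nucleolar ribonucleoproteins (snoRNPs) of the box C/D and box H/ACA types then modify this precursor, and a succession of assembly factors folds and cuts it into the small and the large subunit. Cells that grow or divide make more ribosomes, and the transcription factor MYC is known to drive many of these genes through the E-box sequence. In the pituitary, estrogens act mainly on lactotrophs, the prolactin-producing cells, which enlarge and proliferate under prolonged treatment.

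Signals are in the authors' scaled units, in which each array had the same trimmed mean. Changes are DES minus control on the log2(signal + 16) scale and folds are 2 to that power, so both understate the change of dim genes. Genes are called at an adjusted p under 0.05 from limma, with the Benjamini-Hochberg method over all probe sets tested. Signals of different probe sets were not compared with each other. The labels disagree on replication, since the design text treats all arrays as biological replicates and the notes on samples give each group 1 independent replicate less than its arrays, and p-values measure only the spread between arrays. Across all probe sets tested, arrays numbered 1 and 2 deviated together from the means of their groups, as did those numbered 3 and 4. Deviations of arrays from different groups correlated with a median r of 0.11 within these sets and -0.12 between them, for which the labels give no reason. Each set holds every group. Of the 60 calls made for the members in the comparisons below, 16 missed the threshold within arrays 1 and 2 and 16 within arrays 3 and 4, where fewer arrays enter the fit. For the 18 calls whose change moved by over 1.5 times in either set, both values are given.

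DES rats had higher levels of a part of the ribosome biogenesis genes in all 3 strains, and few members were lower. In ACI, 12 of 39 were higher and 4 lower (30.8% and 10.3%), where 23.1% and 32.4% of the 11744 genes tested were called in the same directions. In COP, 15 were higher and 1 lower (38.5% and 2.56%), against 21.6% and 28.1% of all genes. In BN, 8 were higher and 2 lower (20.5% and 5.13%), against 16.9% and 22.6%. In each strain the share called higher was above that of all genes and the share called lower was below it. In BN the share called higher was close to that of all genes (20.5% against 16.9%). These differences were not tested, and the members were chosen with earlier results of these data known. The members had a median log2 change of 0.13 (ACI), 0.12 (COP) and 0.17 (BN), while that of all genes was -0.13, -0.08 and -0.06. All DES arrays lay above all control arrays for 14, 16 and 9 members in ACI, COP and BN (24.8%, 24.2% and 17.3% of all genes), and below them for 4, 4 and 5 (34.9%, 31% and 24.9% of all genes). The small counts of lower members moved most when 1 array was left out. In COP the count was 0 without COP control 1, COP control 2 or COP DES 1 and 2 without COP DES 4, and in BN it was 0 without BN control 1, 1 without BN control 2 and 6 without BN DES 2. The COP median was 0.24 without COP control 3, 0.22 without COP DES 1 and 0.19 without COP control 1, and the BN median was 0.10 without BN control 1 or BN DES 2 and 0.11 without BN control 2. With the array number as a block, a pairing that the labels do not give and the correlations of deviations cannot show, 9 members were higher and 4 lower in BN. Within arrays 1 and 2 the medians of the members were 0.17, 0.18 and 0.22 for ACI, COP and BN, and within arrays 3 and 4 they were 0.22, 0.20 and -0.10, so in BN the sign rested on arrays 1 and 2. With each array centred on its own median the median of all genes was 0.09, 0.02 and 0.02 and that of the members 0.35, 0.23 and 0.26. In that fit 19 members were higher and 2 lower in ACI (48.7% and 5.13%, where 30.9% and 22.6% of all genes were), 17 and 0 in COP (43.6% and 0%, where 25.3% and 22.5% were) and 11 and 1 in BN (28.2% and 2.56%, where 20% and 18.2% were).

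**Figure D1:**
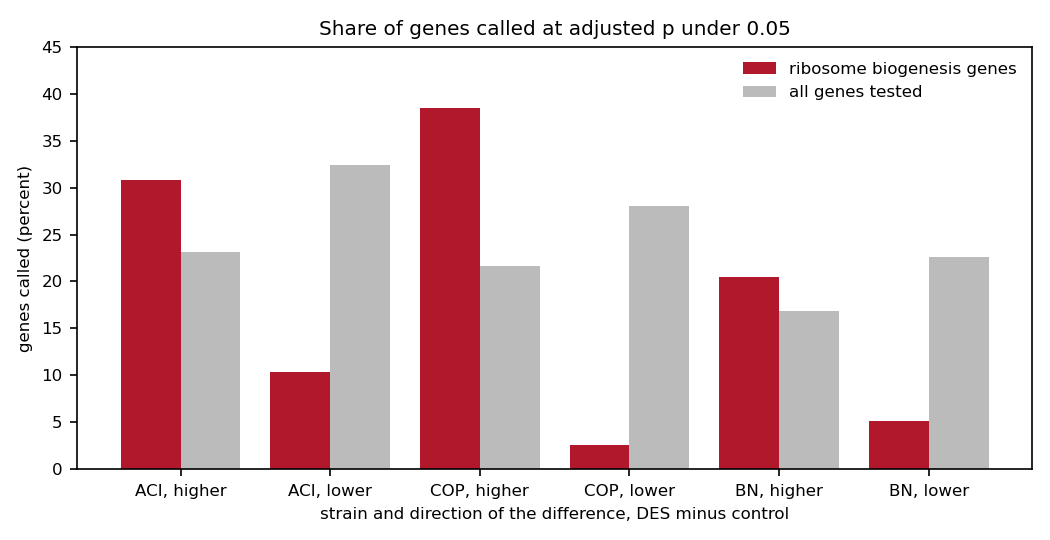
Share of genes called higher or lower in DES rats than in controls at an adjusted p under 0.05 (percent, y axis), by strain and direction (x axis), for the 39 ribosome biogenesis genes and for all 11744 genes tested. Members were called higher at 30.8%, 38.5% and 20.5% in ACI, COP and BN, and lower at 10.3%, 2.56% and 5.13%.

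The calls overlapped between strains. A total of 17 members were higher in at least 1 strain and 6 lower in at least 1 (43.6% and 15.4%), where 29.6% and 40% of all genes were. None was called in both directions, where 0.971% of all genes were, and 16 were called in no strain (41%, where 31.4% of all genes were). Nop56, Nop10, Nhp2, Bysl, Ebna1bp2 and Mrto4 were higher in all 3 strains. These are 6 of 39 members (15.4%), where 11.6% of all genes were higher in all 3. The direction of Mrto4 rests on the probe set chosen. Gnl3, Wdr46, Tsr1, Bop1 and Pes1 were higher in ACI and COP, and Rrs1 in COP and BN. No member was lower in all 3 strains, where 15.9% of all genes were. The 3 comparisons use separate arrays.

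**Figure D2:**
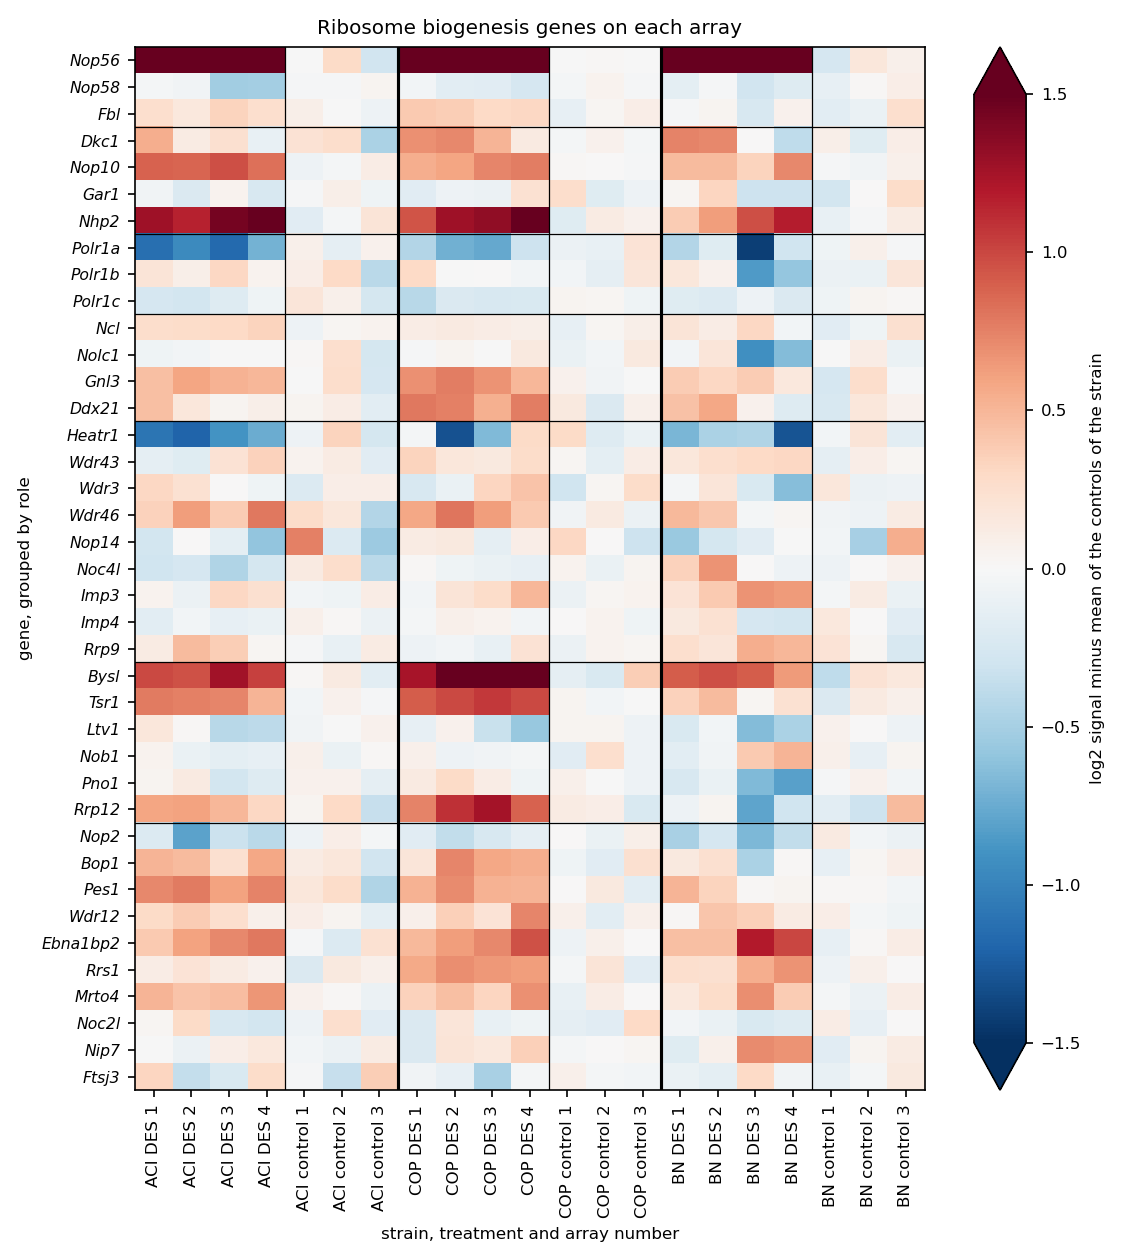
Heat map of the 39 ribosome biogenesis genes (rows, grouped by role) on the 21 arrays (columns, DES arrays left of control arrays within each strain), with color for the log2 signal minus the mean of the controls of the same strain, limited to 1.5 either way. Nop56, Nop10, Nhp2 and Bysl stand out as rows that are higher on every DES array, and Polr1a as one that is lower, while most rows are pale.

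Markers of other cells moved with treatment in the same arrays. Of 16 proliferation genes tested, 12 were higher and 0 lower with DES in ACI and 9 were higher and 1 lower in COP, but 2 were higher and 3 lower in BN, with median log2 changes of 1.57, 0.70 and -0.09. The 16 summed to 8955 to 10528 units on ACI DES arrays against 6281 to 6586 on ACI control arrays, to 7252 to 7546 against 6257 to 6915 in COP, and to 5654 to 6233 against 6790 to 7274 in BN. Pcna alone averaged between 3676 and 4331 in the 6 groups and so made up a large part of each sum. In BN the genes called higher were Ccnb2 and Ube2c, and those called lower were Aurkb, Mcm2 and Mki67. Of 11 leukocyte and macrophage markers tested, 8 were higher with DES in ACI, 10 in COP and 4 in BN, with 0, 1 and 1 lower. The 13 leukocyte markers on the array summed to 17574 to 21596 units on ACI DES arrays against 8020 to 9259 on ACI control arrays, to 18313 to 24546 against 9224 to 9764 in COP, and to 10678 to 20118 against 10690 to 12907 in BN. The lowest group mean of these markers was 5.63 units, for Cd52 in BN controls, which is below the 16 units added before the log2 and so close to the floor. Neural lobe and glial markers summed to 1770 to 2287 on ACI DES arrays against 3651 to 4082 on ACI control arrays, to 2123 to 2753 against 3603 to 5028 in COP, and to 2611 to 3037 against 3346 to 4054 in BN. Of 5 such markers tested, 3, 2 and 2 were called lower in ACI, COP and BN and 0 higher, with median log2 changes of -0.69, -0.64 and 0.12. The sums of endothelial markers were lower with DES in ACI (2005 to 2249 against 3024 to 4224), overlapped in COP (2478 to 2963 against 2631 to 3217) and were higher in BN (3507 to 4565 against 2376 to 3230). Of 6 endothelial markers tested, 5 were called lower in ACI, 1 was called lower in COP and 1 was called higher in BN.

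Of 7 pituitary hormone genes, ACI had 0 higher and 4 lower with DES, COP had 2 higher and 4 lower, and BN had 3 higher and 2 lower. Values are given for Lhb, Fshb, Tshb and Prl, while Gh1, Cga and Pomc enter the counts and sums only. The genes called higher besides Prl in COP and BN are therefore not named. Lhb, the beta subunit of luteinizing hormone, averaged 229.9 units on ACI DES arrays and 16642 on ACI control arrays, 356 on COP DES and 17303 on COP control arrays, and 1137 on BN DES and 14079 on BN control arrays. Fshb, that of follicle-stimulating hormone, was lower in every strain too, with log2 changes of -5.63, -5.38 and -4.62. Tshb, that of thyrotropin, averaged 6439 on DES and 28229 on control arrays in ACI, 9273 on COP DES and 28714 on COP control arrays, and 30127 on BN DES and 26524 on BN control arrays. It was called lower in ACI and COP. Prl, the prolactin gene, was higher in COP and BN (0.62 and 0.77, adjusted p = 0.00923 and 0.0025) and had 0.40 in ACI (adjusted p = 0.0757). The hormone genes summed to 98697 to 111370 units on ACI DES arrays against 113938 to 183712 on ACI control arrays, to 114168 to 147482 against 139434 to 146194 in COP, and to 126527 to 232995 against 123237 to 132568 in BN. The part of these cell types in the changes below was not tested. In whole glands, a change in the share of a cell type and a change in RNA per cell cannot be told apart.

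The core promoters of the members were searched for the E-box CACGTG, which reads the same on both strands. RefSeq promoter sequences (rat build GRCr8, from 250 bases before to 50 bases after the start of each gene) were given for 36 of the 39 genes, all but Wdr43, Bop1 and Rrs1. The E-box lay in 12 of the 36 promoters (33.3%), each time once, against 6.65% of 27457 promoters of all genes and 9.31% of the 9745 promoters of genes tested on the array. In 8 of the 12 it began after the annotated start and in 4 before it. The palindromic consensus of the estrogen response element, which shares no stretch with the E-box, was in 0 of 36 promoters. It was in 0.0255% of all promoters and in 0 of the 9745 promoters of genes tested. A sequence so rare in this window cannot set the members apart. A match is a description of these letters in this window and not evidence of binding.

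The stretches around the E-box are shown for the 12 members because they are the sites by which the members are divided below. Each is written 5′ to 3′ on the strand of the gene, with the E-box in capitals.
Bysl (chr9:20880361-20880390, plus strand): tagccggcttcaCACGTGtaaactttgtgg
Dkc1 (chrX:157751455-157751484, plus strand): agcgtcccggcgCACGTGcgggccccaccc
Ebna1bp2 (chr5:137433552-137433581, plus strand): gcgtcttgctggCACGTGgagtggcagccg
Fbl (chr1:92597416-92597445, plus strand): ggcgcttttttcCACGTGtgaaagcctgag
Gnl3 (chr16:6219790-6219819, minus strand): agttccagttcgCACGTGgcgcccgagacg
Ltv1 (chr1:9398601-9398630, minus strand): gacctgtctaccCACGTGtagagctgccgg
Nop2 (chr4:159618992-159619015, plus strand): cttccccaagtgCACGTGgagcgg
Pes1 (chr14:83074284-83074313, plus strand): ccctaagcggggCACGTGcggtaggaagta
Pno1 (chr14:95819885-95819914, minus strand): ggcacaacctcgCACGTGttccagtggttg
Rrp12 (chr1:250655298-250655327, minus strand): gctgagaatacaCACGTGggttctgctgtg
Tsr1 (chr10:60258798-60258827, plus strand): gtttactcggtgCACGTGggcagttagaat
Wdr46 (chr20:4947462-4947491, minus strand): aaaggagttttgCACGTGgatcgtcgttcc
The E-box began at base 2 of the transcript in Pno1, 4 in Rrp12, 21 in Tsr1, 22 in Fbl, 24 in Wdr46, 31 in Ebna1bp2, 33 in Bysl and 39 in Nop2. It began 25 bases before the start in Gnl3, 50 in Pes1, 61 in Ltv1 and 184 in Dkc1. Among these 12 genes the median log2 changes with DES were 0.51, 0.58 and 0.23 in ACI, COP and BN, with 6, 8 and 2 called higher and 1, 0 and 2 called lower. Among the 24 members with a promoter but no E-box in it the medians were 0.02, 0.05 and 0.07, with 5, 5 and 5 called higher and 3, 1 and 0 called lower. Of all genes tested, 23.1%, 21.6% and 16.9% were called higher in ACI, COP and BN and 32.4%, 28.1% and 22.6% lower. The difference between the members with and without the E-box was not tested. Of the members higher in all strains, Bysl and Ebna1bp2 were among the 12, and Nop56, Nop10, Nhp2 and Mrto4 were among the 24.

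Myc, the gene of the transcription factor that binds this E-box as a dimer with MAX, was higher with DES in every strain. It averaged 689.6 ± 106 units on ACI DES arrays and 162 ± 40.5 on ACI control arrays, 697 ± 126 and 119.7 ± 43.2 in COP, and 660 ± 221 and 87.1 ± 14.1 in BN (SD, n = 4 DES and 3 control arrays). The log2 changes were 2.00, 2.43 and 2.66, with adjusted p of 5.46e-07, 4.82e-08 and 2.6e-08.

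Nop56 had the greatest change of the members in each strain. It encodes a core protein of the box C/D snoRNPs, which guide methylation of ribosomal RNA. On ACI arrays Nop56 read 7854, 6754, 7677.5 and 7311 units in DES rats, against 2163, 2641.5 and 1778 in controls. On COP arrays it read 8696, 8619.6, 9026 and 8329.8 in DES rats, against 2097, 2136 and 2099.6 in controls. On BN arrays it read 6728, 7359, 7276 and 7295 in DES rats, against 1584, 2127 and 1992 in controls. All DES arrays lay far above all control arrays, and COP DES arrays were the brightest. The change was 3.39-fold in ACI, 4.08-fold in COP and 3.77-fold in BN, with log2 changes of 1.76, 2.03 and 1.92 (SE 0.11 each) and adjusted p of 2.11e-11, 4.06e-12 and 2.16e-11. A second, dimmer probe set of Nop56 gave 2.53, 2.38 and 2.05.

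The other core proteins of the same particle moved less. Nop58, the partner of Nop56 in the particle, read 4988, 4889, 3533 and 3563 on ACI DES arrays, against 5045, 5009 and 5215 on ACI control arrays. In COP it read 4683, 4313, 4268 and 4046 with DES, against 4709.7, 4973 and 4749 in controls. In BN, Nop58 read 4165, 4528, 3764 and 4005 with DES, against 4233, 4646 and 4949 in controls. The DES arrays were lower without overlap in ACI and COP, in ACI by a small margin on arrays 1 and 2 and a wide one on arrays 3 and 4, and the groups overlapped in BN. The log2 change was -0.28 in ACI (SE 0.11, adjusted p = 0.0463), -0.15 in COP and -0.16 in BN, the last 2 not called. The ACI call was lost without ACI control 1, 2 or 3 or without ACI DES 3 or 4 (adjusted p up to 0.166), and with arrays centred on the median the change was -0.065 (adjusted p = 0.668). It was -0.025 within arrays 1 and 2 and -0.55 within arrays 3 and 4.

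Fbl encodes fibrillarin, the methyltransferase of the particle. It read 2542.5, 2383, 2694 and 2533 on ACI DES arrays, against 2264, 2117 and 2013 on ACI control arrays. Its COP signals were 2698.5, 2669, 2535 and 2548 with DES, against 1884, 2105 and 2204 in controls. Its BN signals were 2176.5, 2272, 1867 and 2311 with DES, against 1973, 2054 and 2629 in controls. DES and control arrays were apart in ACI and COP and mixed in BN. Only COP was called, with a log2 change of 0.34 (SE 0.10, adjusted p = 0.0109), which missed the threshold without COP control 1 (0.28, adjusted p = 0.0706). It was 0.43 within arrays 1 and 2 and 0.20 within arrays 3 and 4 (adjusted p = 0.358). ACI gave 0.25 (adjusted p = 0.0502) and BN -0.03.

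Of the 4 H/ACA snoRNP proteins, which guide the change of uridine to pseudouridine in ribosomal RNA, Nhp2 and Nop10 were higher in every strain and Dkc1 and Gar1 were called in none. Nhp2, which binds the guide RNA, read 2797, 2568, 3144 and 3404 on ACI DES arrays, against 1021, 1127 and 1317 on ACI control arrays. In COP, Nhp2 read 2141, 2696, 2792 and 3446 with DES, against 969, 1204 and 1157 in controls. In BN, it read 1869, 2228, 2825 and 3256.5 with DES, against 1328, 1417 and 1567 in controls. No DES array reached down to a control array in any strain. The change was 2.56-fold in ACI, 2.45-fold in COP and 1.73-fold in BN (log2 1.35, 1.29 and 0.79, SE 0.17 each, adjusted p = 6.15e-07, 1.71e-06 and 0.000886).

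Nop10, the smallest protein of the H/ACA particle, read 11083, 10955.5, 11722.5 and 10635 on ACI DES arrays, against 5685, 5841 and 6445 on ACI control arrays. The COP signals of Nop10 were 9869.7, 10179, 11230.4 and 11565 with DES, against 6825, 6781 and 6679 in controls. The BN signals were 9528, 9555, 8636 and 11291 with DES, against 6769.7, 6608 and 7199 in controls. The groups did not overlap in any strain. The change was 1.85-fold in ACI, 1.58-fold in COP and 1.42-fold in BN (log2 0.89, 0.66 and 0.50, SE 0.09 each, adjusted p = 4.52e-08, 4.67e-06 and 0.000211). In BN the call was lost with quantile normalization (0.16, adjusted p = 0.159) and within arrays 3 and 4 (0.46, adjusted p = 0.0539). Dkc1, the pseudouridine synthase dyskerin, had log2 changes of 0.20, 0.51 and 0.28 in ACI, COP and BN (SE 0.23 each), and Gar1 had -0.11, -0.03 and -0.07.

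The 3 subunits of RNA polymerase I showed no rise. Polr1a, the largest subunit and part of the catalytic site, read 120.5, 138, 117 and 166 on ACI DES arrays, against 298, 256 and 295 on ACI control arrays. COP DES arrays gave 199.7, 161.5, 156 and 219 for Polr1a, against 258, 254.5 and 319.9 on control arrays. BN DES arrays gave 181, 220.4, 84.2 and 201, against 240.1, 265 and 249 on control arrays. Every DES array was below every control array of its strain, and only ACI was called. The log2 change was -0.99 in ACI (SE 0.23, adjusted p = 0.000913), -0.56 in COP (adjusted p = 0.0502) and -0.58 in BN (adjusted p = 0.0511). Within arrays 3 and 4 the ACI change was -0.996 with an adjusted p of 0.124.

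Polr1c, a subunit shared with RNA polymerase III, read 1389.7, 1372, 1446 and 1591 on ACI DES arrays, against 1889, 1744 and 1383 on ACI control arrays. With DES in COP, Polr1c read 1360.5, 1558, 1539.7 and 1552, against 1867, 1864 and 1735 in controls. With DES in BN it read 1661, 1634, 1789 and 1615, against 1794, 1946 and 1913 in controls. The groups overlapped in ACI through 1 low control array and were apart in COP and, narrowly, in BN. The change was called only in COP, at -0.28 (SE 0.10, adjusted p = 0.0315), and not without COP control 1, COP control 2 or COP DES 1 (adjusted p up to 0.095). It was -0.17 with arrays centred on the median (adjusted p = 0.233), -0.35 within arrays 1 and 2 and -0.165 within arrays 3 and 4 (adjusted p = 0.448). Polr1b, the second-largest subunit, had log2 changes of 0.16, 0.06 and -0.30, none called.

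**Figure D3:**
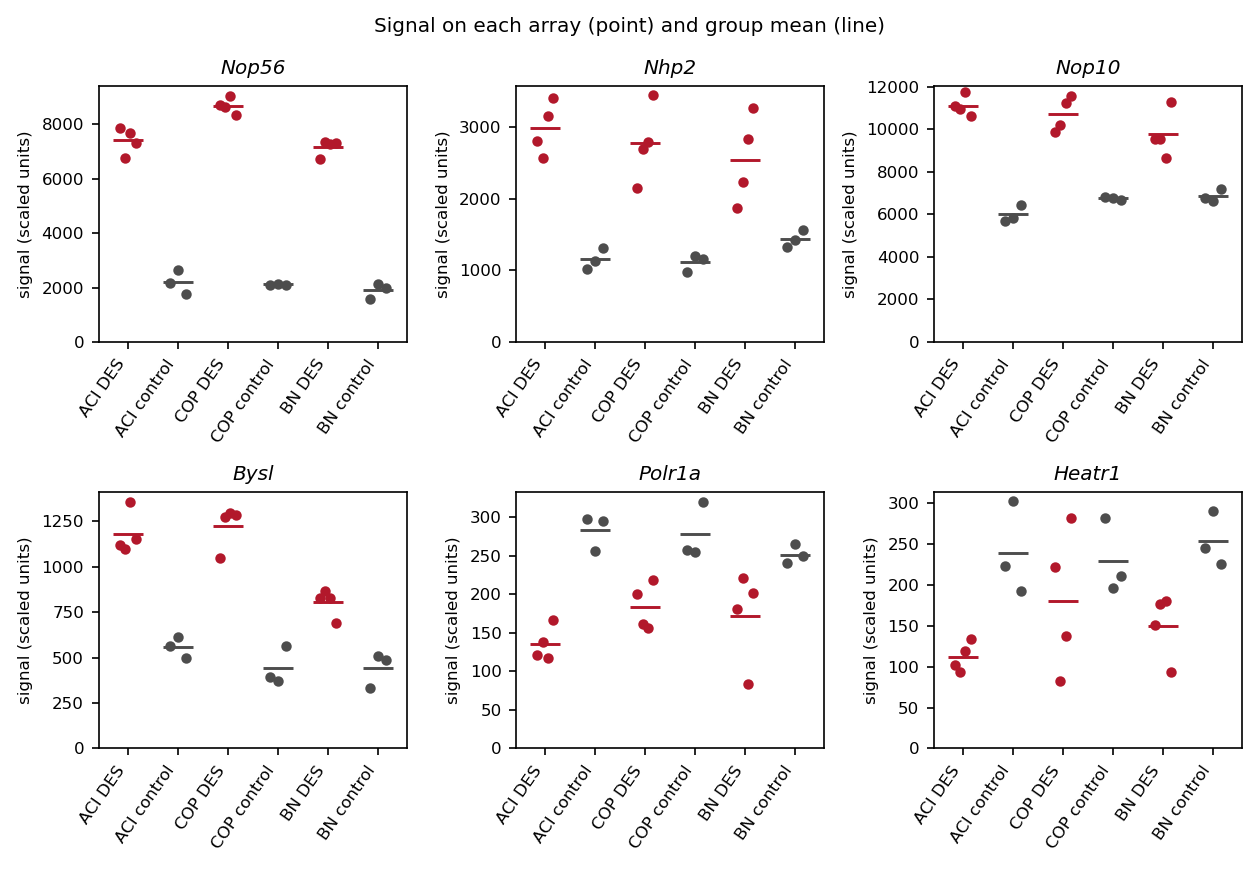
Signal in scaled units (y axis, starting at 0) on each array (points) and mean of each group (lines) for 6 members, with DES in red and control in gray for ACI, COP and BN (x axis). Nop56, Nhp2, Nop10 and Bysl are higher on all DES arrays than on the control arrays of the same strain, Polr1a is lower on all DES arrays, and Heatr1 overlaps in COP.

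Among 4 general nucleolar factors, none was called lower in any strain and none was called at all in BN. Gnl3, the GTPase nucleostemin, read 1979, 2200.4, 2086 and 2051 on ACI DES arrays, against 1439, 1742 and 1213 on ACI control arrays. COP signals of Gnl3 were 2256.5, 2391, 2245 and 1987 with DES, against 1464, 1348.5 and 1392 in controls. BN signals of Gnl3 were 1983, 1878, 1985 and 1689 with DES, against 1273, 1821 and 1499 in controls. ACI and COP arrays separated by treatment, and in BN 1 control array lay among the DES arrays. Gnl3 rose 1.43-fold in ACI and 1.57-fold in COP (log2 0.52 and 0.66, SE 0.12 each, adjusted p = 0.00122 and 0.000141), and the BN change of 0.31 missed the threshold (adjusted p = 0.0545).

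Ddx21, an RNA helicase that acts on the precursor, read 2455.5, 2027, 1852 and 1908 on ACI DES arrays, against 1853, 1943 and 1615 on ACI control arrays. In COP rats, Ddx21 read 2309.5, 2243, 1923 and 2264 with DES, against 1470.5, 1136 and 1396 in controls. In BN rats, Ddx21 read 1838, 2028, 1411 and 1187 with DES, against 1143, 1529 and 1421 in controls. Only the COP arrays separated. Ddx21 rose 1.64-fold in COP (log2 0.71, SE 0.16, adjusted p = 0.000817), with 0.19 in ACI and 0.22 in BN not called. A second probe set was called in ACI instead, with 0.78, 0.48 and 0.63 in ACI, COP and BN, so the probe sets disagreed on the strain.

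Ncl, the abundant nucleolar protein nucleolin, was called higher only in ACI, at 0.29 (SE 0.10, adjusted p = 0.018), with 0.11 in COP and 0.15 in BN. The direction in ACI turned to -0.074 with quantile normalization, and without ACI control 1 the change was 0.25 with an adjusted p of 0.0768. Nolc1, a chaperone of snoRNPs, had log2 changes of -0.03, 0.04 and -0.36 on its brightest probe set, none called. In BN, a group picked after its values were seen, it read 1099, 1280.5, 591 and 712 with DES, against 1119, 1216 and 1054 in controls, so arrays 3 and 4 were well below 1 and 2. The other Nolc1 probe sets had higher mean signals with DES in every strain. The brightest of these averaged 874 against 725 in ACI, 907 against 609 in COP and 597 against 571 in BN, apart only in COP. The next averaged 223 against 123, 235 against 150 and 203 against 144. The dimmest averaged 37.5 against 37.2 in COP.

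Of 9 factors of the early small subunit processome, which assembles on the growing precursor, Wdr46 was higher in ACI and COP, Imp3 was higher in BN, Heatr1 was lower in ACI, and the other 6 were not called. Heatr1, a large scaffold protein, read 102, 93.9, 119 and 134 on ACI DES arrays, against 224, 302 and 193 on ACI control arrays. COP arrays read 222, 82.5, 138 and 282 for Heatr1 with DES, against 282, 196 and 211.5 in controls. BN arrays read 151, 177, 180.1 and 93.8 with DES, against 245, 291 and 225.5 in controls. DES arrays were below control arrays in ACI and BN, and COP DES arrays spread over the range of the controls and below. The log2 change was -0.98 in ACI (SE 0.29, adjusted p = 0.00697), -0.43 in COP (adjusted p = 0.25) and -0.73 in BN (adjusted p = 0.0565). The ACI change was -1.28 within arrays 1 and 2 and -0.55 within arrays 3 and 4 (adjusted p = 0.412).

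Wdr46, another scaffold of the processome, read 352, 432, 361 and 486 on ACI DES arrays, against 334, 309 and 196.5 on ACI control arrays. Wdr46 read 432, 507, 449 and 379 on COP DES arrays, against 274, 313 and 267 on COP control arrays. Wdr46 read 352, 332, 241 and 252 on BN DES arrays, against 237, 233 and 269.8 on BN control arrays. DES arrays were higher in ACI by a small margin and in COP by a clear one, and in BN only arrays 1 and 2 lay above the controls. The change was 1.45-fold in ACI and 1.52-fold in COP (log2 0.54 and 0.60, SE 0.18 each, adjusted p = 0.0151 and 0.00884), against 0.23 in BN, not called. The ACI call was lost without ACI control 3 (0.32, adjusted p = 0.152) and without ACI DES 4 (0.45, adjusted p = 0.0538). The ACI change was 0.27 within arrays 1 and 2 (adjusted p = 0.168) and 1.03 within arrays 3 and 4.

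Imp3, a protein of the snoRNP that starts processome assembly, was shown after its values were seen and read 1761, 1995, 2436 and 2368 on BN DES arrays, against 1491, 1657 and 1419 on BN control arrays. These arrays did not overlap, and arrays 3 and 4 were the highest. The BN log2 change was 0.48 (SE 0.13, adjusted p = 0.00702), with 0.25 within arrays 1 and 2 (adjusted p = 0.0844) and 0.75 within arrays 3 and 4. Wdr43, Wdr3, Nop14, Noc4l, Imp4 and Rrp9 had log2 changes between -0.32 and 0.37 over the 3 strains. The dimmer of the Wdr43 probe sets was called higher at 0.42 in ACI (adjusted p = 0.0222) and at 0.68 in COP (adjusted p = 0.000703), where the brighter one gave 0.06 and 0.23.

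Of 6 factors of the later small subunit, 2 were higher in ACI, 3 were higher in COP and 1 in BN. Pno1 was lower in BN. Bysl, or bystin, which is needed for the final cuts of the small subunit RNA, read 1123, 1096, 1358 and 1154 on ACI DES arrays, against 565, 616 and 499 on ACI control arrays. With DES, COP arrays read 1049, 1277, 1295 and 1285 for Bysl, against 396, 369 and 566 in controls. With DES, BN arrays read 830.0, 869, 829.9 and 689 for Bysl, against 331, 509.8 and 488 in controls. All DES arrays were above all control arrays of any strain, and BN DES arrays were the lowest of the DES arrays. Bysl rose 2.08-fold in ACI, 2.74-fold in COP and 1.81-fold in BN (log2 1.06, 1.45 and 0.86, SE 0.16 each, adjusted p = 6.73e-06, 1.14e-07 and 0.000192).

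Tsr1, a GTPase-like factor that travels with the small subunit, read 1975, 1946, 1904.5 and 1634 on ACI DES arrays, against 1108, 1196 and 1127.5 on ACI control arrays. Tsr1 signals in COP were 1882, 1998, 2089 and 1992 with DES, against 1029, 964 and 995 in controls. Tsr1 signals in BN were 1392, 1524, 1116 and 1288.5 with DES, against 943, 1207 and 1153 in controls. The groups were far apart in ACI and COP and overlapped in BN. Tsr1 rose 1.62-fold in ACI and 1.98-fold in COP (log2 0.69 and 0.99, SE 0.11 each, adjusted p = 1.63e-05 and 1.89e-07), and its BN change of 0.27 was not called (adjusted p = 0.0642).

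Rrp12, a factor in the export of the subunits, read 425, 426.5, 397 and 346 on ACI DES arrays, against 285, 345 and 214 on ACI control arrays. On COP DES arrays Rrp12 read 368, 476, 529 and 410.3, against 236, 230.1 and 181 on COP control arrays. On BN DES arrays Rrp12 read 207, 227, 120.1 and 176, against 195, 174 and 311 on BN control arrays. COP arrays were well apart, ACI arrays were barely apart, and in BN control 3 was the brightest of all 7 arrays. The log2 change was 0.50 in ACI (adjusted p = 0.0573), 0.99 in COP (SE 0.21, adjusted p = 0.000646) and -0.28 in BN (adjusted p = 0.338). The 2 other probe sets of Rrp12 were called higher in COP too, at 0.57 and 1.20. In ACI they gave 0.28, not called, and 0.69, called, and in BN 0.52, called, and -0.11, not called.

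Pno1, which helps to place the cutting enzyme Nob1, read 927, 988, 742 and 786 on ACI DES arrays, against 938.5, 941 and 818 on ACI control arrays. COP rats had 945, 1051, 932 and 822.5 for Pno1 with DES, against 909, 853.5 and 816 in controls. BN rats had 723, 796, 534 and 479.9 with DES, against 842, 893 and 827 in controls. Only the BN arrays were apart, with DES lower, most of all on arrays 3 and 4. The BN log2 change was -0.45 (SE 0.15, adjusted p = 0.0212), with -0.19 within arrays 1 and 2 and -0.69 within arrays 3 and 4. The call was lost without BN control 1, BN control 2, BN DES 3 or BN DES 4 (adjusted p up to 0.0858), with quantile normalization (-0.32, adjusted p = 0.0645), with arrays centred on the median (-0.37, adjusted p = 0.0558) and with only the groups compared in the fit (adjusted p = 0.107). Nob1 and Ltv1, a factor released late from the small subunit, were called in no strain, with changes between -0.35 and 0.17.

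Of 10 large subunit factors, 4 were higher with DES in ACI, 5 in COP and 3 in BN, while Nop2 was lower in ACI and BN. Ebna1bp2, an early assembly factor, read 2349.6, 2708, 2956 and 3096 on ACI DES arrays, against 1761, 1543 and 2087 on ACI control arrays. In COP glands, Ebna1bp2 read 2383.5, 2625.5, 2794 and 3303 with DES, against 1603, 1786 and 1703 in controls. In BN glands, Ebna1bp2 read 2135, 2136, 3569.7 and 3131 with DES, against 1424, 1571 and 1687 in controls. DES arrays were higher in all strains without overlap, and in BN arrays 3 and 4 were the highest. The change was 1.54-fold in ACI, 1.62-fold in COP and 1.71-fold in BN (log2 0.63, 0.70 and 0.77, SE 0.16 each, adjusted p = 0.0025, 0.00124 and 0.000713). The BN change was 0.51 within arrays 1 and 2 and 0.98 within arrays 3 and 4.

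Pes1, Bop1 and Wdr12 form 1 complex that is needed for the large subunit. Pes1 read 1000.2, 1045, 924.5 and 1020.4 on ACI DES arrays, against 683, 734 and 437 on ACI control arrays. For COP, Pes1 read 767, 871, 765 and 759.6 with DES, against 531, 587 and 474 in controls. For BN, Pes1 read 998, 879, 707 and 717.5 with DES, against 707, 703 and 678 in controls. ACI and COP arrays were apart, and in BN DES arrays 3 and 4 lay at the level of the controls. Pes1 rose 1.64-fold in ACI and 1.48-fold in COP (log2 0.71 and 0.56, SE 0.15 each, adjusted p = 0.000398 and 0.00381), with 0.23 in BN not called. The ACI change of Pes1 was 0.52 within arrays 1 and 2 and 1.12 within arrays 3 and 4. Bop1 was called in the same strains, at 0.45 (adjusted p = 0.0286) and 0.51 (adjusted p = 0.0169), with -0.02 in BN. Its ACI call was lost without ACI control 3, ACI DES 1, ACI DES 2 or ACI DES 4 (adjusted p up to 0.176), and its COP call without COP control 1, COP control 2 or COP DES 2 (adjusted p up to 0.0888). Bop1 had 0.35 within arrays 1 and 2 and 0.71 within arrays 3 and 4 in ACI, and 0.58 and 0.32 in COP. Wdr12 gave 0.25, 0.34 and 0.23, none called.

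Nop2, a methyltransferase of the large subunit RNA, ran the other way. It read 918.5, 601, 848 and 796 on ACI DES arrays, against 1007, 1139 and 1042 on ACI control arrays. For COP it read 856, 742, 812 and 875 with DES, against 969.6, 899 and 1029 in controls. For BN it read 758, 896, 667 and 822 with DES, against 1174, 1036 and 1004 in controls. Every DES array was below every control array of its strain. The log2 change was -0.43 in ACI (SE 0.13, adjusted p = 0.00817), -0.23 in COP (adjusted p = 0.163) and -0.44 in BN (SE 0.13, adjusted p = 0.011). The ACI call was lost with arrays centred on the median (-0.22, adjusted p = 0.183) and with quantile normalization (-0.31, adjusted p = 0.0543), and the BN call was lost without BN control 1 (-0.38, adjusted p = 0.0659).

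Mrto4, which holds the place of a stalk protein, was higher in all 3 strains at 0.52, 0.45 and 0.38 (SE 0.14 each, adjusted p = 0.003, 0.00973 and 0.0351). Its dimmer probe set gave -0.45, -0.28 and -0.33, none called, so the direction rests on the choice of the brighter probe set. The BN call was lost without BN control 1 or 2 or without BN DES 3 or 4 (adjusted p up to 0.126), with the array number as a block (0.33, adjusted p = 0.0577), with no filter (adjusted p = 0.0503) and with only the groups compared in the fit (adjusted p = 0.134), and the COP call without COP control 1 (0.40, adjusted p = 0.0505). Rrs1 was higher in COP (0.64, SE 0.12, adjusted p = 0.00022) and BN (0.43, SE 0.12, adjusted p = 0.00978), with 0.13 in ACI. The BN change of Rrs1 was 0.25 within arrays 1 and 2 (adjusted p = 0.179) and 0.61 within arrays 3 and 4, and its call was lost with only the groups compared in the fit (adjusted p = 0.0672). Noc2l, Nip7 and Ftsj3 had changes between -0.18 and 0.32, none called.

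**Figure D4:**
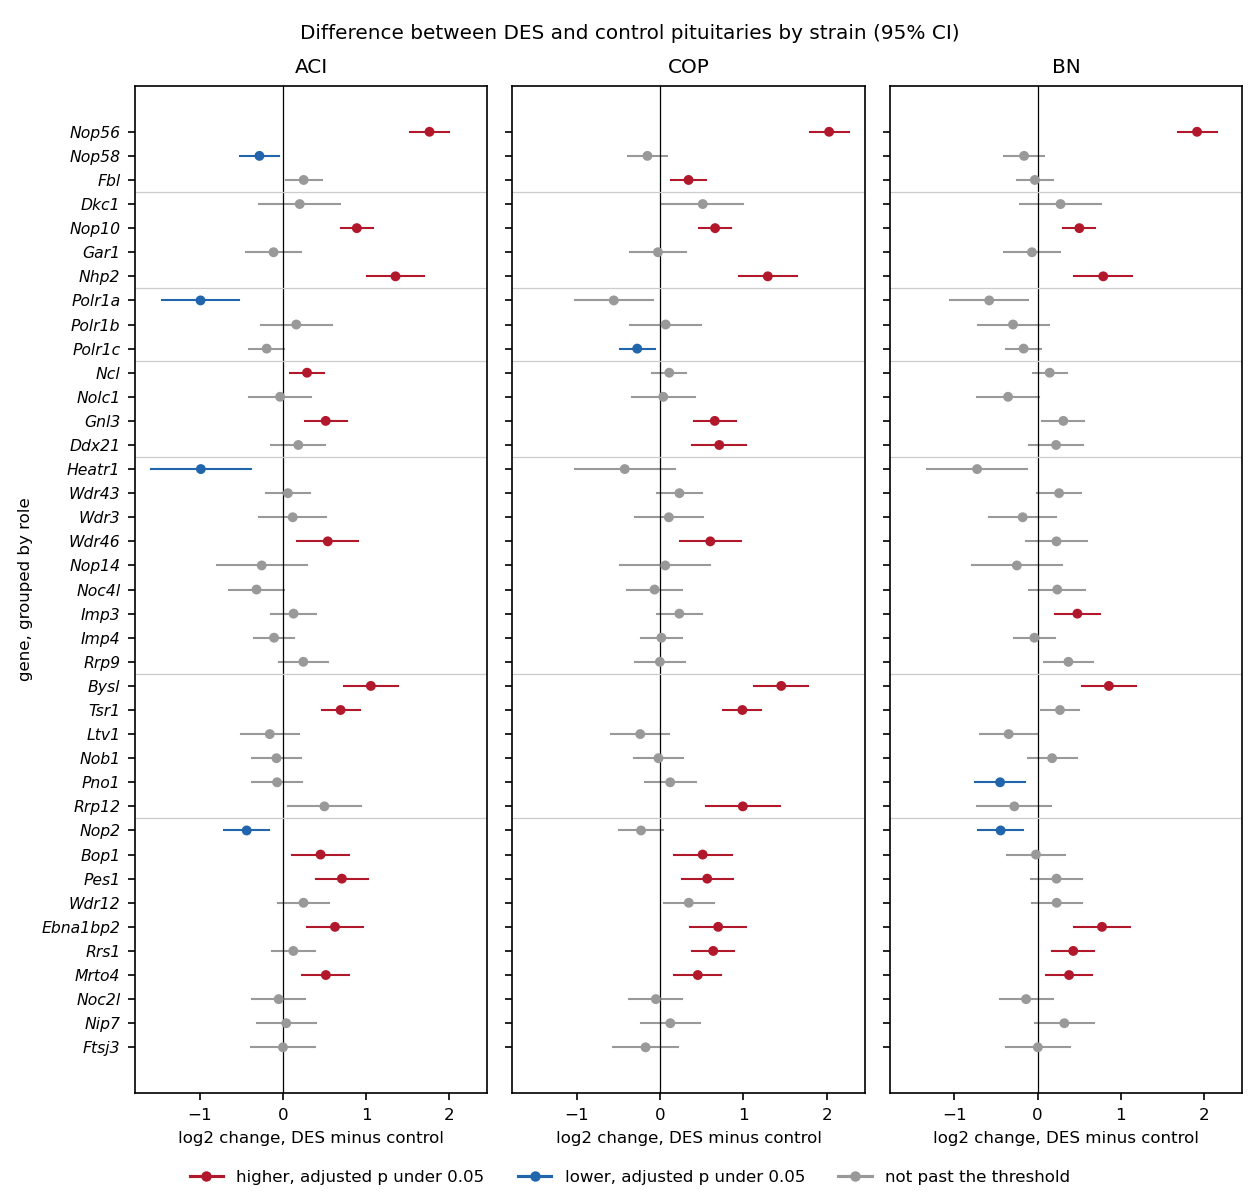
Log2 change, DES minus control (x axis), with its 95% confidence interval for the 39 members (rows, grouped by role) in ACI, COP and BN. Red marks members called higher, blue members called lower and gray the rest, and Nop56 lies farthest to the right in each strain at 1.76, 2.03 and 1.92.

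Other genes of ribosome assembly outside the 40 were counted for the same comparisons. Beside these counts and those of the next paragraph stand the shares of all genes tested. These were 23.1%, 21.6% and 16.9% higher in ACI, COP and BN, and 32.4%, 28.1% and 22.6% lower. Differences from these shares were not tested. Of 12 further subunits and factors of RNA polymerase I, 3 were higher and 1 lower with DES in ACI, while COP had 5 and 0 and BN 2 and 0. Rrn3, which recruits the polymerase, had log2 changes of 0.61, 0.44 and 0.12, and Polr1g, a subunit, 1.01, 0.63 and 0.35, the first called in ACI and COP and the second in ACI. Of 37 further small subunit factors, 5 were higher and 7 lower in ACI, while COP had 4 and 5 and BN 4 and 4. Utp6 was lower in each strain (-0.49, -0.35 and -0.38), and Esf1 in ACI alone (-0.50), with -0.13 in COP and 0.05 in BN.

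Of 39 further large subunit factors, 5 were higher and 8 lower with DES in ACI, while COP had 9 and 3 and BN 10 and 3. Nle1 (1.41, 1.39 and 0.95) and Nop53 (0.69, 0.49 and 0.47) were higher in all 3 strains. Among 8 genes of snoRNP assembly, 1 was higher and 2 lower in ACI, while COP had 1 and 3 and BN 1 and 2. Ruvbl1 and Ruvbl2, the ATPase pair that helps to assemble box C/D particles, were lower in every strain, at -0.85, -0.78 and -0.72 for Ruvbl1 and -0.55, -0.71 and -0.39 for Ruvbl2. Among 10 subunits of the RNA exosome, which trims the precursor, 1 was higher and 4 lower in ACI, while COP had 1 and 2 and BN 0 and 1. Exosc1 was higher in ACI and COP (0.46 and 0.26, with 0.08 in BN) and Exosc8 lower in all 3 (-0.88, -0.67 and -0.53). The median log2 changes in ACI, COP and BN were 0.25, 0.30 and 0.24 for the polymerase list, -0.06, 0.10 and 0.05 for the small subunit, -0.17, 0.06 and -0.01 for the large subunit, -0.18, -0.18 and -0.13 for snoRNP assembly and -0.35, -0.15 and -0.04 for the exosome, where all genes had -0.13, -0.08 and -0.06.

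The strains were next compared within each treatment. In controls no member was called between ACI and BN, ACI and COP, or COP and BN with limma, where 7.44%, 1.19% and 6.04% of all genes were, and 6, 2 and 4 members had an unadjusted p under 0.05. The smallest adjusted p in controls was 0.0697. A single call appeared between ACI and BN without ACI control 1 or ACI control 3, and between ACI and COP without ACI control 1. After DES, 6 members were higher in ACI than in BN and 0 lower (15.4% and 0%), where 16.4% and 19.7% of all genes were called. Likewise 9 were higher in COP than in BN and 0 lower (23.1% and 0%), where 13% and 12.9% of all genes were called. No member was called between ACI and COP after DES (5.64% of all genes), and 2 had an unadjusted p under 0.05. Both comparisons with BN use the same 4 BN arrays. The first count was 10 without BN DES 1 or BN DES 2, and the second was 5 without COP DES 2 or BN DES 3.

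The 6 members called in both comparisons were Polr1b, Wdr46, Bysl, Tsr1, Pno1 and Rrp12, which are 15.4% of the 39, where 10.7% of all genes were higher in both. Rrp12 differed most, by 1.09 in ACI minus BN (adjusted p = 0.000188) and 1.24 in COP minus BN (adjusted p = 8.56e-05). By the signals given above, its ACI and COP DES arrays were all above its BN DES arrays on this probe set. Another Rrp12 probe set averaged 270 on ACI DES, 372 on COP DES and 285 on BN DES arrays, so ACI was not above BN there. A further one averaged 250, 298 and 158 on these arrays. Polr1b, chosen after its values were seen because it came second in the ACI comparison, read 529.6, 489, 573 and 478 on ACI DES arrays, 565, 452.5, 458 and 440.0 on COP DES arrays and 359, 334, 169 and 208 on BN DES arrays. Control arrays read 494, 569.8 and 344 for ACI, 439.8, 412 and 518.5 for COP and 299, 295 and 363 for BN. BN arrays were the lowest after DES without overlap, and arrays 3 and 4 lower than 1 and 2. All BN control arrays were below all COP control arrays too. The difference after DES was 0.97 for ACI minus BN (SE 0.19, adjusted p = 0.00043) and 0.86 for COP minus BN (SE 0.19, adjusted p = 0.00217), and 0.51 for ACI minus BN in controls (adjusted p = 0.201). After DES, ACI minus BN was 0.53 within arrays 1 and 2 and 1.41 within arrays 3 and 4, and COP minus BN was 0.53 and 1.19.

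Tsr1 was higher by 0.49 in ACI and 0.58 in COP than in BN after DES (adjusted p = 0.000771 and 0.000222), and Bysl by 0.55 and 0.60 (adjusted p = 0.00563 and 0.00423). Pno1 was higher by 0.45 and 0.58 (adjusted p = 0.0136 and 0.0035) and Wdr46 by 0.45 and 0.57 (adjusted p = 0.0393 and 0.015). The ACI minus BN call of Pno1 was lost without ACI DES 2 or BN DES 4, that of Wdr46 without ACI DES 2, ACI DES 4, BN DES 3 or BN DES 4, and the COP minus BN call of Wdr46 without COP DES 2 or BN DES 3 (adjusted p between 0.0528 and 0.127). Fbl, Ddx21 and Bop1 were called only in COP minus BN, at 0.28, 0.46 and 0.45 (adjusted p = 0.0403, 0.0255 and 0.0402), and were lost without COP DES 1, 2, 3 or 4 or BN DES 1 or 3 (Fbl), COP DES 1, 2 or 4 or BN DES 3 or 4 (Ddx21), and COP DES 2, 3 or 4 or BN DES 3 or 4 (Bop1), with adjusted p up to 0.164. With only the groups compared in the fit, the ACI minus BN calls of Wdr46 and Pno1 and these 3 COP minus BN calls were lost (adjusted p between 0.0767 and 0.12), and with no filter those of Wdr46, Fbl and Bop1 were (adjusted p between 0.0510 and 0.0559). Within arrays 1 and 2 and within arrays 3 and 4, ACI minus BN was 0.18 and 0.73 for Wdr46, and COP minus BN was 0.24 and 0.68 for Ddx21 and 0.19 and 0.71 for Bop1. The second Ddx21 probe set gave 0.13 for COP minus BN after DES (adjusted p = 0.785), so that call rests on the brighter probe set. The proliferation markers differed between the same arrays, with 13 of 16 higher in ACI than in BN after DES and 9 of 16 higher in COP than in BN, and their part in these differences was not tested.

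**Figure D5:**
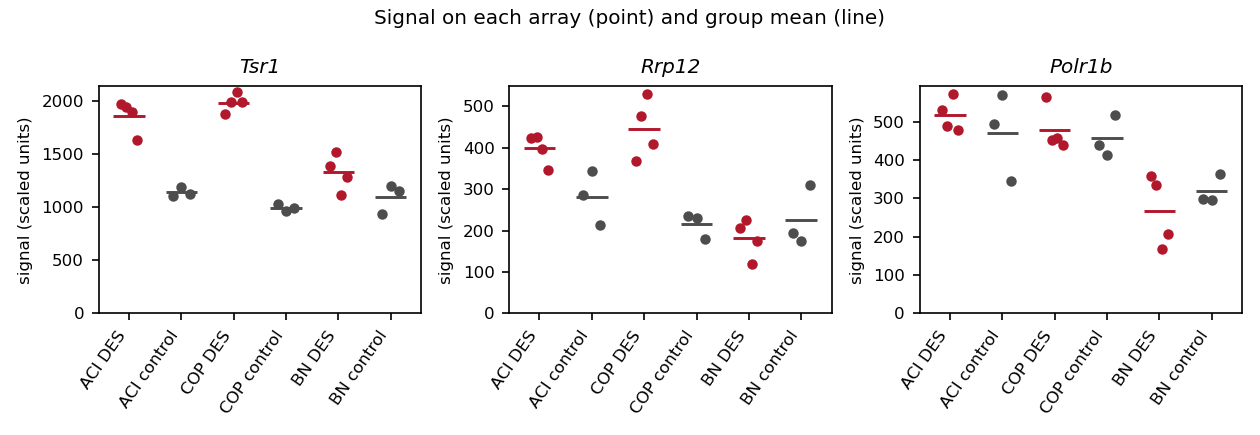
Signal in scaled units (y axis, starting at 0) on each array (points) and mean of each group (lines) for Tsr1, Rrp12 and Polr1b, with DES in red and control in gray for ACI, COP and BN (x axis). BN DES arrays lie below all ACI and COP DES arrays on the probe set shown for each gene. BN control arrays overlap the range of ACI control arrays for each gene but lie below all COP control arrays for Polr1b.

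Few members responded to DES by different amounts in different strains. The response was larger in COP than in BN for 2 of 39 members and smaller for 0 (5.13% and 0%), where 4.02% and 2.93% of all genes were called. They were Tsr1, with a difference of 0.72 (SE 0.16, adjusted p = 0.00741), and Rrp12, with a difference of 1.27 (SE 0.30, adjusted p = 0.0144). A total of 8 members had an unadjusted p under 0.05, all with the larger response in COP. Of the 39 differences, 29 were positive, with a median of 0.16, where the median of all genes was -0.02. Without BN control 3, the brightest of its group, the difference for Rrp12 was 1.04 with an adjusted p of 0.0541. The second Rrp12 probe set gave 1.31 (adjusted p = 0.0168) and the third 0.04 (adjusted p = 0.961). Within arrays 1 and 2 the difference was 0.51 for Tsr1 and 0.59 for Rrp12, neither called, and within arrays 3 and 4 it was 0.97 for Tsr1, not called, and 2.31 for Rrp12 (adjusted p = 0.0266).

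Between ACI and BN, 1 member differed in response (2.56%, where 17.8% of all genes were called in either direction) and 6 had an unadjusted p under 0.05. It was Nop10, whose response was larger in ACI by 0.39 (SE 0.13, adjusted p = 0.0494), a call lost without any 1 of the ACI and BN arrays other than ACI control 3 and BN DES 4 (adjusted p up to 0.113). It was lost too with no filter, a pseudocount of 64, no variance trend or only the groups compared in the fit (adjusted p between 0.0502 and 0.102). Between ACI and COP no member was called, with 0.647% of all genes called and 2 members at an unadjusted p under 0.05. Nop56, the member with the greatest change, differed in response by -0.15 in ACI minus BN (95% CI -0.48 to 0.18), by 0.11 in COP minus BN (-0.22 to 0.44) and by -0.27 in ACI minus COP (-0.60 to 0.06).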

How the data were processed

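Anterior pituitary RNA was measured on 21 arrays in 6 groups (3 strains, DES or control). The deposited values are linear intensity values, 1 signal per probe set, which the authors had scaled so that each array had the same 2% trimmed mean. No source used here names the summarization software. The number of arrays limits the precision.

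Of 31099 probe sets, 57 controls were left out, and 21858 probe sets whose signal passed the 40th percentile on 3 or more arrays were tested. Group means of log2(signal + 16) were fitted on all 21 arrays with limma 3.58.1 (R 4.3.3), with a variance trend and Benjamini-Hochberg adjustment per comparison. Platform annotation gave 1 symbol to 20826 probe sets, several to 436 and none to 9780, and the brightest 1-symbol probe set stood for a gene. Scripts were tested on simulated data. Figures used Python 3.11.15 and matplotlib 3.10.9.

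The members and lists were chosen with earlier results of these data known. Values on every array were given for the 2 members of each role group with the largest mean absolute change, for members called lower in any strain and for those with a called difference in response, and 2 genes were named per other list by smallest adjusted p in ACI. Alternatives were the filter, pseudocount, normalization, replicate block, array number sets, variance trend, arrays fitted, probe set chosen and each array left out.

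Whether array numbers pair DES and control arrays was checked by the correlation of their deviations from the group means. It was 0.138 to 0.238 in BN, where every pair passed 0.1, 0.084 to 0.164 in COP and 0.080 to 0.091 in ACI. Arrays of different groups within the same number set correlated with r of -0.05 to 0.32 (median 0.11). This range holds all of these values, so the check cannot tell pairing of arrays from the number sets. The labels give no pairing.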

Additional observations from a re-analysis of the deposited data

Results flagged for a closer look

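Among the 54 groups of 4 DES arrays checked for the members with values on every array, 4 held an array far from the other 3, where chance alone gives about 1 in 20 groups such a gap. Nop56 read 6728 on BN DES array 1, below the other BN DES arrays. Polr1c read 1360.5 on COP DES array 1 and Bysl read 1049 on the same array, each below the others of its group. Pes1 read 871 on COP DES array 2, above the others.

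In 3 cases the response to DES differed between strains by the test of the difference itself. The response of Nop10 was larger in ACI than in BN by 0.39 on the log2 scale, a call lost in 17 of 27 other fits. The response of Tsr1 was larger in COP than in BN by 0.72, and that of Rrp12 by 1.27. Tsr1 was called within neither set of array numbers, and another Rrp12 probe set gave almost no difference.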

How the results depend on the processing

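Of 60 calls named for the members, 29 held in every fit run. Over 1236 fits of these calls, 131 missed the threshold and 4 turned direction, namely Ncl in ACI with quantile normalization (-0.074) and Mrto4 with the probe set of largest SD (-0.45 in ACI, -0.28 in COP and -0.33 in BN). Where the cause of a change is not plain from the setting itself, it was not tested.

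With arrays centred on the median, 19 members were higher and 2 lower in ACI, 0 were lower in COP and 1 in BN, the medians were 0.35, 0.23 and 0.26, the response differed between ACI and BN for 3 members, and 12 differed between ACI and BN after DES. Quantile normalization gave 3 lower members and a median of 0.24 in COP and 13 higher members in BN. The filter at the 60th percentile gave 2 lower members in COP, 4 in BN and 1 called between ACI and COP in controls. A pseudocount of 64 gave 2 lower in COP, 4 in BN and 0 responses that differed between ACI and BN. That last count was also 0 with no filter, with no variance trend and with only the groups compared in the fit, and the last 2 settings gave 2 lower members in COP, with 1 lower in BN for only the groups compared.

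With the replicate block, the calls of Mrto4 in BN (0.33, adjusted p = 0.0577) and Nop58 in ACI (-0.24, adjusted p = 0.0626) were lost and the other 58 kept. Then 2 members were lower in COP and 4 in BN, responses differed for 2 members between ACI and BN and 4 between COP and BN, and 1 member was called in controls between ACI and COP and 1 between COP and BN. With the array number sets as a factor, 2 were lower in COP and 4 in BN, responses differed for 4 between ACI and BN, 10 differed between ACI and BN after DES and 1 between ACI and COP in controls.

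With arrays 1 and 2 only, 0 members were lower in BN, responses differed for 4 between ACI and BN, 1 between ACI and COP and 0 between COP and BN, and controls differed for 9 between ACI and BN, 3 between ACI and COP and 1 between COP and BN. With arrays 3 and 4 only, which leave 1 control array per group that is assumed to vary like the rest, 1 member was lower in ACI, 0 in COP and 4 in BN, the medians were 0.22, 0.20 and -0.10, responses differed for 4 between ACI and BN and 1 between COP and BN, and 11 differed between ACI and BN after DES.

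Leaving out 1 array at a time gave 10 to 13 higher and 3 to 5 lower members in ACI with medians of 0.12 to 0.19, 12 to 16 and 0 to 2 in COP with medians of 0.12 to 0.24, and 8 to 10 and 0 to 6 in BN with medians of 0.10 to 0.20. Responses differed for 0 to 2 members between ACI and BN, 0 to 0 between ACI and COP and 1 to 3 between COP and BN. Controls differed for 0 to 1, 0 to 1 and 0 to 0 members in the same pairs, and DES arrays for 4 to 10, 0 to 0 and 5 to 11.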
